A study of Saccharomyces cerevisiae with 9 samples.

Results

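Late log yeast was compared with mid log yeast in 6 of the 9 mRNA-seq libraries of a study of *Saccharomyces cerevisiae* within log phase. The 6 libraries were chosen by their labels as replicates 1 to 3 of late log and replicates 1 to 3 of mid log, and every line of their count files that names a gene was used. The strain of all 6 cultures was the study's wild type, a *MATa* haploid that carries the drug-resistance allele *can1-100* and the nutritional alleles *his3-11* and *trp1-1*, a *leu2* allele with both the *leu2-3* and the *leu2-112* change, *ura3-1* and *ade2-1*, and in which *RPA135*, the gene of the second-largest RNA polymerase I subunit, carries an HA and histidine tag marked with *TRP1*. Cells grew in YPD, a rich medium with glucose, at 30ºC and were harvested by optical density at 600 nm (OD600), which the methods place between 0.5 and 0.7 in mid log cultures and between 0.8 and 1.0 in late log cultures. Polyadenylated RNA was selected and read from strand-specific libraries, and the 3 replicates of a subphase were biological replicates. The question was what separates the later subphases of log growth, in nutrient genes and in short against long genes, with mid log replicate 1 shown apart.

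As yeast grows in rich medium it takes up glucose, phosphate, metals, amino acids and vitamins, and many of the genes for their uptake are controlled by dedicated sensors. In the phosphate pathway, the kinase inhibitor Pho81 restrains the Pho80-Pho85 kinase when phosphate is scarce, and the factor Pho4 then switches on transporters and secreted acid phosphatases. Thiamine genes are switched on when thiamine is scarce, iron uptake genes by the factors Aft1 and Aft2 when iron is scarce, and mitochondrial ribosomal protein mRNAs are bound in their 3′ ends by Puf3, a protein that controls their stability.

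The libraries held 22830165 to 34358259 reads counted on genes, and the files listed 7127 genes. Differences between replicates exceeded sampling noise in every pair, with a chi-square per degree of freedom of 15.93 to 37.12 among the late log replicates and between mid log replicates 2 and 3, and of 630.4 and 661.7 between mid log replicate 1 and the other two mid log libraries. Mid log replicate 1 therefore stood apart from its group, and its own values are shown beside those of the other libraries. The study reported that a mid log sample it calls A departed from its group and was harvested at the lower limit of the mid log OD600 range. Whether sample A is replicate 1 is not stated, and the part of harvest density was not tested. Mid log was sequenced in run 2 and late log in run 3, so that subphase and run cannot be told apart. The groups also differed in the share of reads that fell on no gene, 6.65% to 8.40% for the mid log libraries against 9.92% to 10.7% for the late log libraries, and in the share that matched more than 1 place, 9.56% to 11.2% against 7.46% to 7.55%. The part of these shares in the results was not tested. In bulk RNA, fewer cells of a kind and less RNA per cell cannot be told apart.

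Of the genes described below, most of those of the phosphate pathway hold a short upstream sequence that the choice of libraries did not use. The letters CACGTG, the core of the site that Pho4 binds and also that of the factor Cbf1, were searched in the 500 bases before the annotated start of each gene (the letters read the same on both strands). They occurred in 6.21% of 6008 protein-coding genes, in 14 of the 18 phosphate genes listed and in 7 of the 8 protein-coding genes that were lower in late log. The windows below, from the R64 genome and the RefSeq annotation, are printed 5′ to 3′ on the strand of the gene with CACGTG in capitals, for the 7 genes lower in late log that hold these letters.
*PHO84* (chrXIII:26220-26247, minus strand): tttaatagttcCACGTGgacgtgttatt
*PHO84*, second site (chrXIII:26198-26225, minus strand): gttatttccagCACGTGgggcggaaatt
*PHO5* (chrII:431188-431215, minus strand): cttggcactcaCACGTGggactagcaca
*PHO11* (chrI:225166-225193, plus strand): cttggcgttcaCACGTGggtttaaaaag
*PHO12* (chrVIII:551805-551832, plus strand): cttggcgttcaCACGTGggtttaaaaag
*PHO81* (chrVII:958538-958565, minus strand): aggtgttatggCACGTGcgaataagggc
*VTC4* (chrX:413496-413523, minus strand): acgtggctgcaCACGTGaatgaaaaaga
*ARE2* (chrXIV:665089-665116, plus strand): cattgcagttaCACGTGaatgctaaact
The letters began 436 and 414 bases before the start of *PHO84* on chromosome XIII, 253 bases before *PHO5* on chromosome II, 283 bases before *PHO11* on chromosome I and *PHO12* on chromosome VIII, 344 bases before *PHO81* on chromosome VII, 125 and 113 bases before *VTC4* on chromosome X (the nearer site is printed) and 239 bases before *ARE2* on chromosome XIV. The windows of *PHO11* and *PHO12* were identical. Their sequences over the whole gene agreed at 1400 of 1404 bases (99.72%), so reads of either may have been assigned to the other or set aside, and their separate levels are uncertain. Over the protein-coding genes tested, the median log2 fold change was -0.19 for the 350 with CACGTG and -0.12 for the 5171 without it. Without mid log replicate 1 the medians were -0.05 and 0.10, with 118 of 350 and 1403 of 5201 genes lower.

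In the 6 libraries, 27 of 5865 genes tested (0.46%) differed between late and mid log by edgeR's quasi-likelihood test at a Benjamini-Hochberg adjusted p of 0.05. Of these, 18 (0.307%) were higher and 9 (0.153%) lower in late log, and 1160 genes had an unadjusted p below the same threshold. All 27 also passed in the same direction without mid log replicate 1. That fit called 56.1% of its genes and used libraries that had also chosen the 27, so this agreement is not independent support. In it *PHO12*, *PHO11*, *PHO5*, *VTC4* and *PHO81* had log2 fold changes of -3.19, -3.09, -2.38, -1.73 and -1.31, *FRE7* and *ARE2* -2.12 and -1.74, and *THI7*, *THI20*, *FET3*, *SNO1* and *COX5B* 2.05, 2.10, 1.90, 2.87 and 1.15. The genes lower in late log were led by the phosphate pathway, and those higher in late log were mostly short genes for mitochondrial proteins, together with genes of thiamine, iron and vitamin B6 metabolism. The groups did not overlap in any of the 27, but the test that chose these genes favours such separation, so this is not added support. Over all genes tested the groups were apart in 27.6%, with 15% wholly higher and 12.6% wholly lower in late log. The number of calls rested on single libraries: 0 genes passed without any late log replicate, 3 without mid log replicate 2 and 2 without mid log replicate 3. Values below are CPM (counts per 1000000 reads on genes), scaled by TMM, a normalization which assumes that most genes do not change, and log2 fold changes are of late over mid log.

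**Figure D1:**
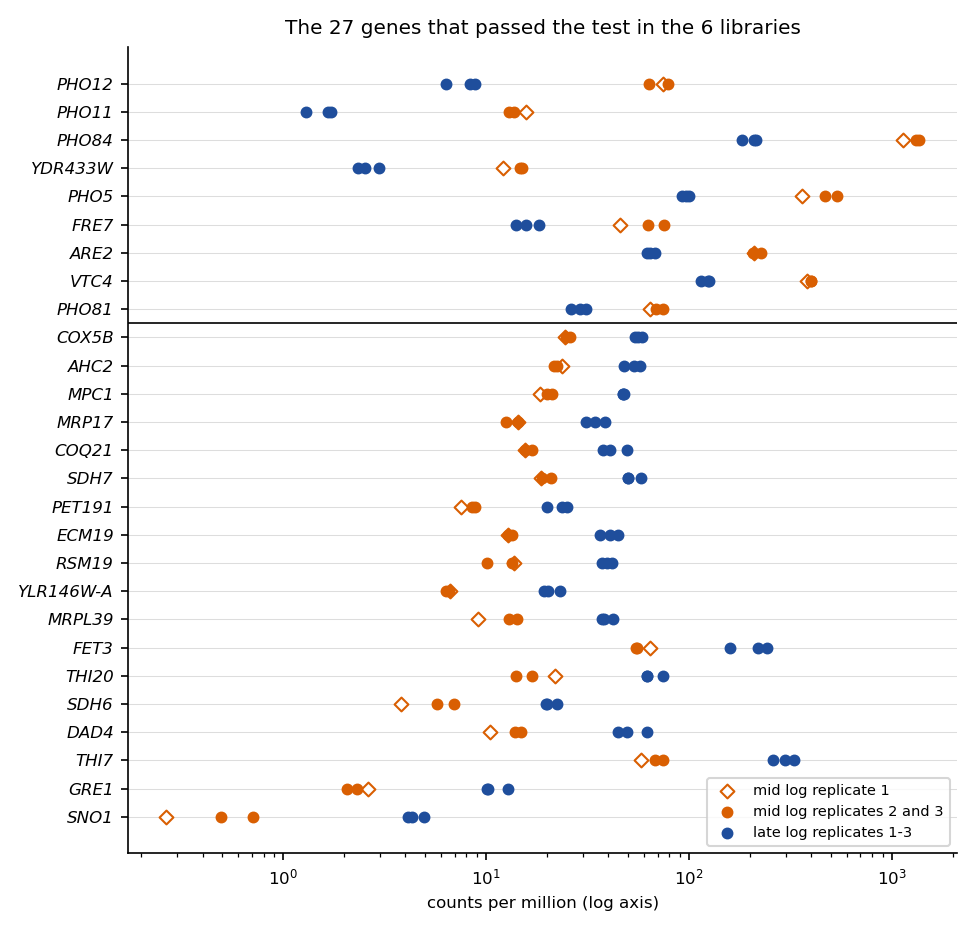
CPM of the 27 genes that passed the test, by library, on a log axis. The 9 genes above the line were lower and the 18 below it higher in late log, and mid log replicate 1 (open diamonds) lies with mid log replicates 2 and 3 in each of them. The test that chose these genes used that library and favours genes in which it does so.

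*PHO84* encodes the high-affinity phosphate transporter of the plasma membrane and lies on chromosome XIII at 24037 to 25800. It read 1135, 1365 and 1317 CPM in mid log replicates 1, 2 and 3 and 214, 182 and 209 CPM in late log. Every mid log library lay far above every late log library. Its log2 fold change was -2.66 ± 0.19 (SE, 6.30-fold lower, adjusted p = 0.00623 by edgeR's quasi-likelihood test), and -2.73 ± 0.09 (SE) without mid log replicate 1. A noncoding gene on the other strand, *YNCM0001W*, covers all 1764 bases of *PHO84*, and the strand setting of the counting is not given, so reads of the pair cannot be told apart.

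The secreted acid phosphatases fell with it. *PHO5* on chromosome II at 429548 to 430951 read 361, 467 and 538 CPM in mid log and 100.4, 97.1 and 92.1 CPM in late log. *PHO12* on chromosome VIII at 552099 to 553502 read 74.2, 63.8 and 79.0 CPM in mid log and 8.83, 6.34 and 8.31 CPM in late log. *PHO11* on chromosome I at 225460 to 226863 read 15.7, 12.9 and 13.7 CPM in mid log and 1.72, 1.29 and 1.66 CPM in late log. The groups were far apart in all of them, with log2 fold changes of -2.24 for *PHO5*, -3.21 for *PHO12* and -3.18 for *PHO11* (SE 0.21, 0.22 and 0.25, adjusted p = 0.0144, 0.00623 and 0.00883 by edgeR). *PHO5* shared 83.62% of its bases with *PHO11*.

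*PHO81*, the kinase inhibitor at the head of the pathway, was lower by a smaller amount. It read 64.1, 69.1 and 74.1 CPM in mid log and 31.2, 29.1 and 26.2 CPM in late log, a log2 fold change of -1.26 ± 0.17 (SE, adjusted p = 0.0397 by edgeR). *VTC4*, the polymerase of vacuolar polyphosphate, in which yeast stores phosphate, read 382, 399 and 401 CPM in mid log and 124, 114 and 125 CPM in late log. Its replicates within mid log were almost level, and its log2 fold change was -1.70 ± 0.17 (SE, adjusted p = 0.0144 by edgeR).

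Of the 18 phosphate genes listed, 6 were lower and 0 higher in late log in the 6 libraries, and their median log2 fold change was -1.34, that of all genes tested being -0.11. Without mid log replicate 1, 17 were lower and 0 higher with a median of -1.38, against 27.2% lower and 28.9% higher among the 5913 genes tested, whose median was 0.07. The groups of 3 did not overlap in 17 of the 18, always with late log lower, and touched in *PHM7*. Over all genes tested 12.6% were wholly lower in late log. *PHO89*, the sodium-coupled phosphate transporter, read 6.10, 14.9 and 12.5 CPM in mid log and 1.76, 2.06 and 1.94 CPM in late log, and its log2 fold change of -2.54 had an adjusted p of 0.0503 in the 6 libraries. The glycerophosphoinositol transporter *GIT1* read 87.7, 172 and 173 CPM in mid log and 50.6, 56.6 and 45.7 CPM in late log, and *SPL2*, an inhibitor of low-affinity phosphate uptake, 28.5, 30.8 and 37.1 CPM in mid log and 16.6, 11.0 and 14.96 CPM in late log. By edgeR, both passed only without mid log replicate 1 (adjusted p = 2.02e-06 and 0.000177), although that library lay on the mid log side in each. *GIT1* also passed in the 6 libraries by DESeq2's test (adjusted p = 0.000883).

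The other subunits of the polyphosphate complex also passed by edgeR only without mid log replicate 1. *VTC1* read 504.5, 1068 and 1127 CPM in mid log and 406, 415 and 418.5 CPM in late log, *VTC3* 293, 177 and 168 CPM against 72.8, 56.8 and 73.4 CPM, and *VTC2* 151, 110.2 and 113 CPM against 75.3, 71.2 and 72.6 CPM. Mid log replicate 1 was low for the short *VTC1* (390 bases) and high for the longer *VTC2* (2487 bases) and *VTC3* (2508 bases), yet remained above every late log library. *PHO8*, the vacuolar alkaline phosphatase, had a log2 fold change of -0.48 without mid log replicate 1. The gene of the 18 not called in that fit was *PHM8*, a phosphatase, with 42.4, 12.6 and 11.5 CPM in mid log and 10.8, 8.72 and 10.2 CPM in late log, where mid log replicate 1 was high and the other mid log libraries lay just above late log (adjusted p = 0.127 by edgeR without replicate 1).

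**Figure D2:**
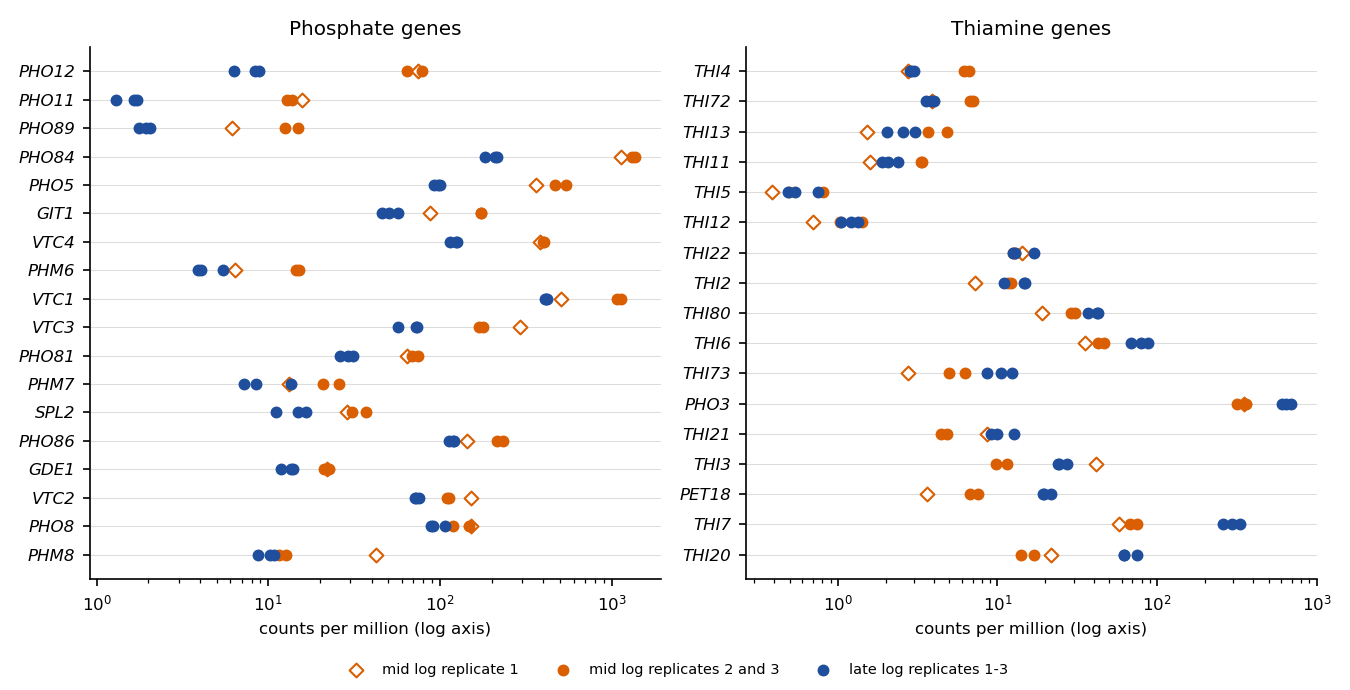
CPM of the 18 phosphate genes and the 17 thiamine genes in each library, on log axes. In 17 of the phosphate genes all mid log points lie above all late log points, while the thiamine genes are divided, with 8 of 17 wholly higher in late log. Over all genes tested 12.6% were wholly lower and 15% wholly higher.

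Among thiamine genes the direction was divided. *THI7*, the thiamine transporter of the plasma membrane, on chromosome XII at 612367 to 614163, read 57.9, 74.8 and 67.9 CPM in mid log and 296, 258 and 330.4 CPM in late log. *THI20*, a kinase that makes the pyrimidine part of thiamine, read 21.8, 16.8 and 14.0 CPM in mid log and 62.1, 61.8 and 74.7 CPM in late log. Both were wholly higher in late log, with log2 fold changes of 2.14 ± 0.20 and 1.91 ± 0.23 (SE, adjusted p = 0.0144 and 0.0269 by edgeR). Of the 17 thiamine genes, 2 were higher and 0 lower in the 6 libraries, and 9 were higher and 4 lower without mid log replicate 1, with a median of 0.45.

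The other thiamine genes that passed without mid log replicate 1 included *PHO3*, an acid phosphatase that releases thiamine from its phosphate, and *PET18*. *PHO3* read 352, 315 and 362 CPM in mid log and 640, 610 and 690 CPM in late log, in the opposite direction to the neighbouring acid phosphatase gene *PHO5*. *PET18* read 3.60, 6.72 and 7.54 CPM in mid log and 19.3, 19.5 and 21.7 CPM in late log. Against these, *THI4*, which makes the thiazole part of thiamine, read 2.74, 6.59 and 6.15 CPM in mid log and 2.99, 2.83 and 2.86 CPM in late log, and mid log replicate 1 lay beside late log. *THI5*, *THI11*, *THI12* and *THI13*, near-identical genes for the pyrimidine part, were all under 5 CPM, and their separate levels are uncertain.

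The metal genes did not move together either. *FET3*, the copper-dependent ferroxidase of high-affinity iron uptake, on chromosome XIII at 388822 to 390732, read 64.2, 55.4 and 54.9 CPM in mid log and 243, 158 and 218 CPM in late log, a log2 fold change of 1.83 ± 0.22 (SE, adjusted p = 0.0269 by edgeR). *FRE7*, a metal reductase of the copper-starvation response, read 45.7, 75.6 and 62.7 CPM in mid log and 18.1, 14.0 and 15.6 CPM in late log, a log2 fold change of -1.94 ± 0.25 (SE, adjusted p = 0.0299 by edgeR). The groups were apart in both genes and in opposite directions. *FTR1*, the iron permease that works with Fet3, had a log2 fold change of 0.03 in the 6 libraries (adjusted p = 0.966 by edgeR).

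Of 23 iron genes tested without mid log replicate 1, 2 were higher (*FET3* and *ATX1*, a copper chaperone) and 12 lower, with a median of -0.36, and this balance turned to 7 higher and 4 lower with library totals. *FRE1*, the main surface reductase, read 114, 219 and 199.7 CPM in mid log and 84.3, 41.1 and 57.3 CPM in late log. Of the zinc and copper genes, 2 of 14 were higher and 10 lower, among them the zinc transporter *ZRT2* with 214, 500.5 and 494 CPM in mid log and 201, 198 and 201 CPM in late log. In *ZRT2* mid log replicate 1 lay next to late log and not with the rest of mid log. The letters TGCACCC, the site of Aft1, stood in 20 of the 23 iron genes within 500 bases before the start on either strand and in 2.31% of all protein-coding genes. The site of *FET3*, shown because it alone of the called genes has one, began 251 bases before the start.
*FET3* (chrXIII:388560-388588, plus strand): atcttcaaaagTGCACCCatttgcaggtg

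The other genes among the 27 that were neither phosphate, thiamine nor metal genes included *SNO1*, *ARE2*, *GRE1* and *YDR433W*. *SNO1*, of vitamin B6 synthesis, read 0.264, 0.713 and 0.493 CPM in mid log and 4.11, 4.92 and 4.30 CPM in late log, the largest rise by fold (log2 fold change 3.21 ± 0.40, SE, adjusted p = 0.0299 by edgeR), from 11, 16 and 11 reads in mid log to 110, 122 and 135 reads in late log. *ARE2*, which stores sterols as esters, read 209, 226 and 206 CPM in mid log and 62.1, 64.2 and 67.7 CPM in late log (log2 fold change -1.72 ± 0.17, SE, adjusted p = 0.0144 by edgeR). *GRE1*, a small hydrophilic protein of the stress response, read 2.62, 2.32 and 2.06 CPM in mid log and 10.1, 10.2 and 12.8 CPM in late log. *YDR433W*, which was not matched to the reference annotation, read 12.1, 14.7 and 14.98 CPM in mid log and 2.95, 2.34 and 2.52 CPM in late log.

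Short genes for mitochondrial proteins made up most of the genes higher in late log. *COX5B*, a subunit of cytochrome c oxidase, read 24.5, 24.6 and 26.0 CPM in mid log and 54.5, 58.8 and 56.0 CPM in late log (log2 fold change 1.17 ± 0.16, SE, adjusted p = 0.0397 by edgeR). *MPC1*, of the mitochondrial pyruvate carrier, read 18.4, 21.1 and 20.0 CPM in mid log and 47.4, 47.4 and 48.0 CPM in late log. The assembly factors of succinate dehydrogenase, *SDH6* and *SDH7*, rose from 3.82, 5.70 and 6.91 CPM and from 18.7, 18.8 and 20.9 CPM to 22.2, 20.0 and 19.8 CPM and 50.1, 50.3 and 58.0 CPM. In none of these genes did a mid log library come near the late log range.

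Further genes of this kind were the mitochondrial ribosomal proteins *MRP17*, *RSM19* and *MRPL39*, with log2 fold changes of 1.33, 1.67 and 1.70 (adjusted p = 0.0448, 0.0269 and 0.0394 by edgeR). *MRPL39* read 9.08, 14.2 and 12.9 CPM in mid log and 42.0, 37.4 and 38.2 CPM in late log. *PET191*, an assembly factor of cytochrome c oxidase, rose by 1.47, *ECM19*, a mitochondrial protein of unknown function, by 1.65 and *COQ21* by 1.42 on the log2 scale (adjusted p = 0.0421, 0.0238 and 0.0393 by edgeR). The other short genes were *AHC2* of the ADA histone acetyltransferase complex, *DAD4* of the kinetochore's DASH complex, with 10.4, 13.8 and 14.9 CPM in mid log and 62.2, 44.9 and 49.5 CPM in late log, and *YLR146W-A*. These last genes ran from 189 bases (*YLR146W-A*) to 387 bases (*AHC2*) in length.

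The Puf3 letters TGTANATA, with N any base, were searched on the coding strand in the 200 bases after the annotated gene end. They stood in 69 of 71 mitochondrial ribosomal protein genes (97.2%), in 6 of the 18 genes higher in late log (33.3%) and in 14.0% of 6008 protein-coding genes. The windows of the called mitochondrial genes that hold the letters are shown, with the letters in capitals, to compare their sites. *COX5B*, *MPC1*, *SDH6* and *COQ21* held none in this window.
*RSM19* (chrXIV:694996-695025, minus strand): atgatatatcaTGTAAATAagatcaagcca
*MRPL39* (chrXIII:251207-251236, minus strand): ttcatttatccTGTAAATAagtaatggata
*MRP17* (chrXI:437038-437067, minus strand): ctacaaacacaTGTAAATAcatacatatct
*SDH7* (chrIV:1470429-1470458, plus strand): tttattgcgctTGTAAATAagaaatccata
*PET191* (chrX:497018-497047, plus strand): gaaaattggccTGTAAATAtatacataaat
*ECM19* (chrXII:903432-903461, plus strand): ctttcttttccTGTATATAgcatcaatagt
*RSM19* held the letters 3 times, of which the site 38 bases after the gene end is printed. In the 6 libraries the median log2 fold change was 0.02 over the 824 genes with the letters and -0.15 over the 4697 genes without them. Without mid log replicate 1 the medians were 0.32 and 0.05, with 43.5% of the former and 27.7% of the latter higher in late log.

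Without mid log replicate 1, 3318 of 5913 genes (56.1%) passed, 1707 higher and 1611 lower. That library's own levels, which did not enter this fit, lay on the mid log side of all late log libraries in 38.96% of the genes called higher and in 37.06% of those called lower. They lay beyond all late log libraries on the opposite side in 841 of the 1707 called higher and in 642 of the 1611 called lower. The gene lists differed in this respect. Mid log replicate 1 was on the mid log side in 16 of the 17 phosphate genes called, in 8 of the 9 thiamine genes called higher and in 18 of the 21 respiratory chain genes called higher, but in 0 of 4 thiamine and 0 of 3 respiratory chain genes called lower. It was on that side in 7 of 22 amino acid permeases and 6 of 17 glycolytic genes called lower, and in 0 of 15 proteasome genes called higher.

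Scaling moved the balance of these calls. With library totals in place of TMM the median log2 fold change over all genes without mid log replicate 1 was 0.57 in place of 0.07, with 3321 genes higher and 630 lower. The directions of list medians below are relative to the median of all genes. The medians of the iron, hexose transport and reserve carbohydrate lists turned from -0.36, -0.42 and -0.44 with TMM to 0.13, 0.08 and 0.06 with library totals, and those of the nitrogen and ribosome biogenesis lists from -0.33 and -0.07 to 0.16 and 0.43, all below the 0.57 of all genes.

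**Figure D3:**
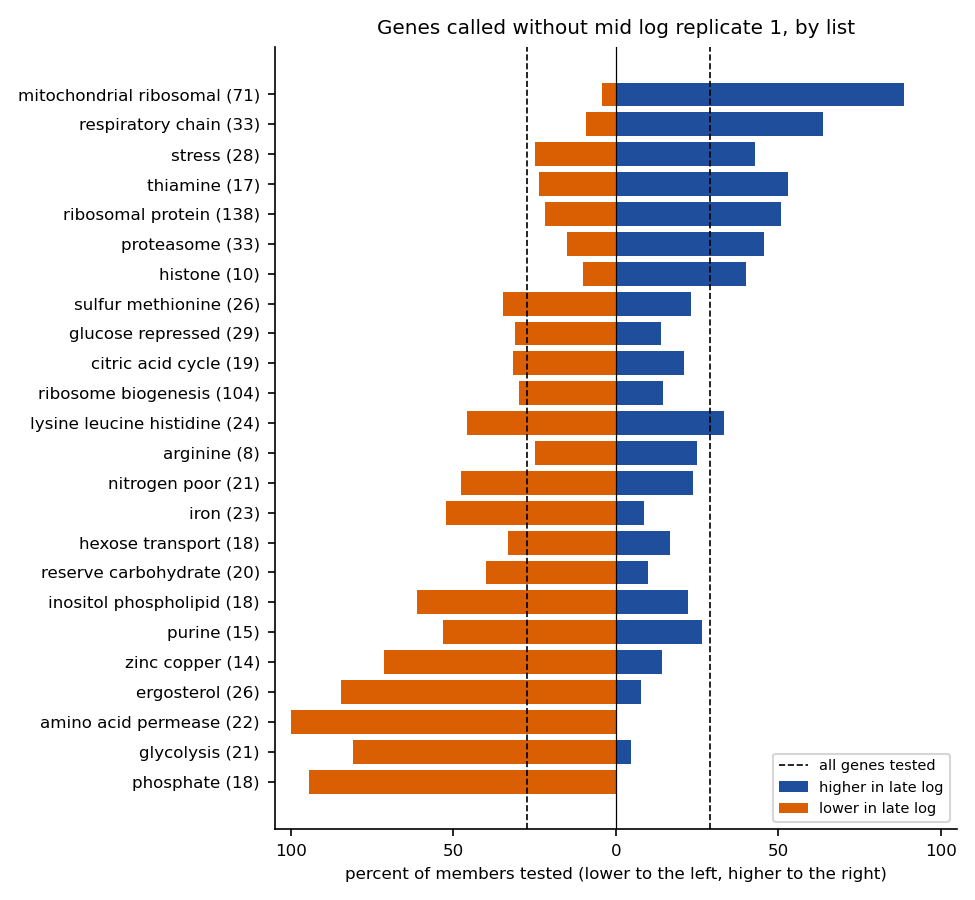
Percent of each list's members that passed the test as higher (right) or lower (left) in late log in the fit without mid log replicate 1 with TMM scaling, with the number tested in parentheses. Dashed lines mark all genes tested (28.9% higher, 27.2% lower), and the phosphate, glycolysis and amino acid permease lists lie far to the left and the mitochondrial ribosomal list far to the right.

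Glycolytic genes were lower in late log than in mid log replicates 2 and 3. Of 21 genes, 17 were lower and 1 higher without mid log replicate 1, with a median of -1.01, and 12 were lower and 5 higher with library totals (median -0.51). *ENO2*, an enolase, read 61740 and 60780 CPM in mid log replicates 2 and 3 and 18790, 20790 and 19360 CPM in late log, and *ADH1*, the alcohol dehydrogenase of fermentation, 44640 and 42970 CPM against 13630, 15310 and 14510 CPM. Mid log replicate 1 read 24030 CPM for *ENO2* and 15990 CPM for *ADH1*, above late log but far from its own group, and 0 glycolytic genes passed with it by edgeR. By DESeq2's test *ENO2* and *ADH1* passed in the 6 libraries (adjusted p = 0.0179 and 0.0328). The list took 27.2% and 26.8% of reads in mid log replicates 2 and 3, 21.0% in replicate 1 and 17.6% to 18.9% in late log. The gene called higher was *PDC5*, a minor pyruvate decarboxylase, with 38.6, 83.1 and 82.2 CPM in mid log and 202, 148 and 206 CPM in late log.

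All 22 amino acid permease genes were lower in late log without mid log replicate 1 (median -0.97), and 0 of the 22 passed with it by edgeR. By DESeq2's test *MUP1* and *SAM3* passed in the 6 libraries (adjusted p = 0.0333 and 0.0338). *MUP1*, the methionine permease, read 185, 376 and 421 CPM in mid log and 177, 113 and 146 CPM in late log, and *SAM3*, the S-adenosylmethionine permease, 220.5, 426 and 441 CPM against 168.5, 197 and 156 CPM. In these genes mid log replicate 1 stood close to late log. With library totals 15 of the 22 were lower and 0 higher. The hexose transporters *HXT1* and *HXT2* followed the same order, with 280, 612 and 605 CPM for *HXT1* in mid log against 216, 181 and 199.5 CPM in late log. Other hexose transporters did not fall as far. Without mid log replicate 1 the log2 fold change was -0.59 for *HXT3*, and 0.25 for *HXT4* and 0.10 for *HXT7*, neither of which passed.

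Ergosterol synthesis, which makes the sterol of yeast membranes, had 22 of 26 genes lower and 2 higher without mid log replicate 1 (median -0.70, and -0.20 with library totals). Over all genes tested 27.2% were lower and 28.9% higher in that fit. The groups of 3 did not overlap in 17 of the 26, all lower in late log, against 12.6% wholly lower over all genes tested. *HMG1*, a reductase at the pathway's committed step, read 364, 573 and 618 CPM in mid log and 230.4, 185 and 191 CPM in late log, and *ERG24* 220.1, 480.1 and 493.5 CPM against 157, 158 and 148 CPM. The genes called higher in that fit were *ERG20* and *IDI1*, in which mid log replicate 1 lay on the other side of late log. *ERG20* read 500.4 CPM in mid log replicate 1, 31.1 and 29.2 CPM in replicates 2 and 3, and 131.5, 87.4 and 174 CPM in late log. Its log2 fold change was -0.52 with replicate 1 and 2.12 without it.

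*TYS1*, the cytosolic tyrosyl-tRNA synthetase, behaved likewise, with 267 CPM in mid log replicate 1, 16.3 and 16.3 CPM in replicates 2 and 3 and 65.2, 42.0 and 84.8 CPM in late log, and its log2 fold change turned from -0.64 to 1.97 without replicate 1. *LEU1* of leucine synthesis read 1233 CPM in that library, 262.5 and 268 CPM in the other mid log libraries and 627, 598 and 620 CPM in late log. For such genes no direction can be given for the subphase, since it depends on 1 library. Among purine genes *IMD3*, of GTP synthesis, was lower in late log, with 655, 1214 and 1272 CPM in mid log and 473, 468 and 424 CPM in late log, and 4 of 15 purine genes were higher and 8 lower without replicate 1.

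**Figure D4:**
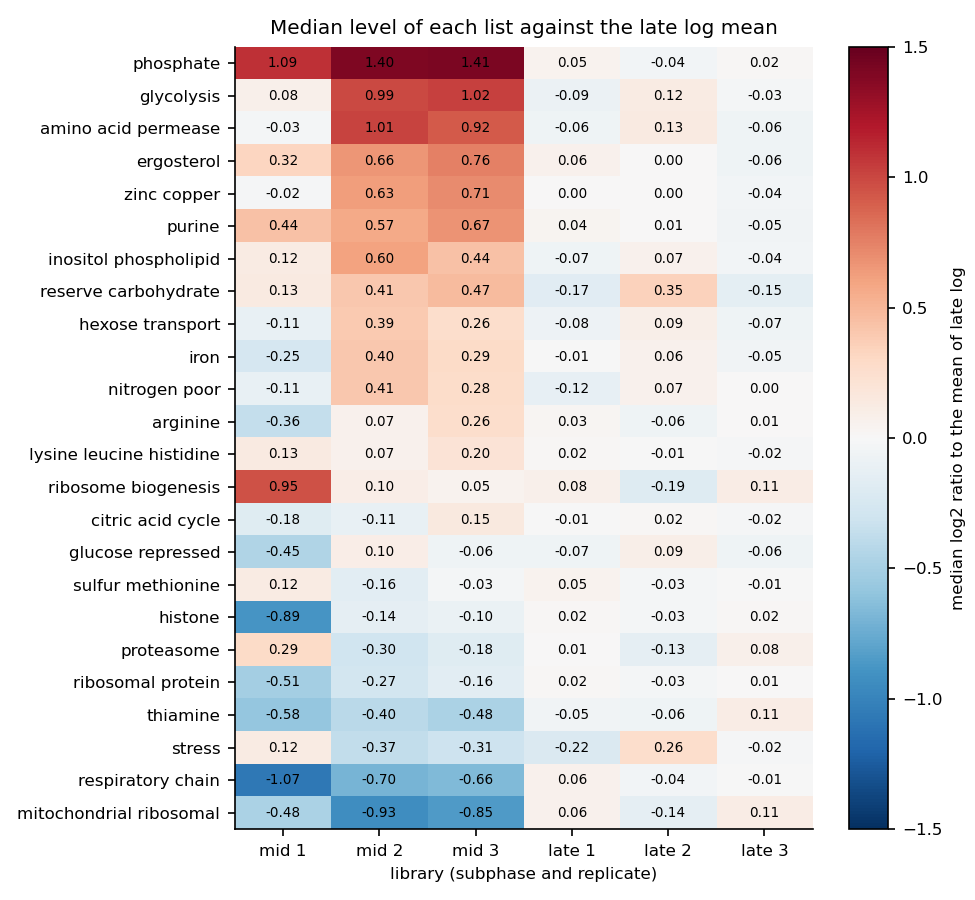
Median over the genes of each list of the log2 ratio of a library's CPM to the mean of late log, by library. Mid log replicates 2 and 3 have similar values in most lists, while mid log replicate 1 lies on their side in the phosphate and thiamine lists (1.09 against 1.40 and 1.41, and -0.58 against -0.40 and -0.48), is near 0 in the glycolysis and permease lists, and stands apart in the ribosome biogenesis list (0.95 against 0.10 and 0.05).

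Mitochondrial ribosomal protein genes were mostly higher in late log than in mid log replicates 2 and 3. In the 6 libraries 3 of 71 were higher and 0 lower (median 0.63), and without mid log replicate 1 63 were higher and 3 lower (median 1.02). The groups of 3 did not overlap in 39, all higher in late log, against 15% wholly higher over all genes tested. *MRPL7* read 14.2 and 14.8 CPM in mid log replicates 2 and 3 and 69.0, 58.4 and 85.4 CPM in late log, with 50.3 CPM in mid log replicate 1. The genes called lower were *MRPS12*, *MRPS18* and *MRPL51*, with log2 fold changes of -0.36, -0.67 and -0.49. In all of them mid log replicate 1 was far below late log, as in *MRPS18* with 26.7 CPM against 82.3 and 85.1 CPM in its group and 50.3, 57.2 and 50.8 CPM in late log.

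Of 33 respiratory chain genes, 21 were higher and 3 lower without mid log replicate 1 (median 0.67). *QCR7*, of the cytochrome bc1 complex, read 64.4, 46.9 and 39.2 CPM in mid log and 165.5, 121 and 162 CPM in late log. *ATP15*, the epsilon subunit of ATP synthase (189 bases), read 56.5, 122 and 128 CPM in mid log and 364, 393 and 333 CPM in late log. The genes called lower were the ATP synthase subunits *ATP1* (1638 bases), *ATP2* (1536 bases) and *ATP5* (639 bases), with log2 fold changes of -0.96, -0.83 and -0.50. *ATP3* (936 bases), another subunit, was higher by 0.97 in that fit and by 0.27 in the 6 libraries, where it did not pass. It read 123.6, 49.2 and 36.6 CPM in mid log and 83.8, 72.1 and 97.0 CPM in late log, with mid log replicate 1 above late log. The citric acid cycle, whose enzymes feed the chain, had 4 of 19 genes higher and 6 lower without mid log replicate 1, a share near that of all genes.

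Cytosolic ribosomal protein genes took 22.8% to 23.6% of the reads of mid log libraries and 29.2% to 30.8% of those of late log, without overlap. Of 138 genes 0 passed in the 6 libraries, with a median of 0.25, and 70 were higher and 30 lower without mid log replicate 1. *RPS26A* read 313 and 345 CPM in mid log replicates 2 and 3, 1281 CPM in replicate 1 and 1361, 1072 and 1595 CPM in late log. Ribosome biogenesis genes, which build those proteins and rRNA into ribosomes, had 15 of 104 higher and 31 lower in that fit, a balance that turned to 47 higher and 12 lower with library totals. *NOP1*, which methylates rRNA, read 1487, 3238 and 3388 CPM in mid log and 1146, 1094 and 1089 CPM in late log, so that it was lower in late log in every library. Of the 15 biogenesis genes called higher, mid log replicate 1 lay on the mid log side in 1, and of the 31 called lower in 25.

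Of 33 proteasome genes, 15 were higher and 5 lower without mid log replicate 1. As among the biogenesis genes called higher, its level mostly lay above all late log libraries, in 10 of the 15. *RPN12* read 30.0 CPM in mid log replicate 1, 5.34 and 4.17 CPM in replicates 2 and 3, and 15.1, 12.3 and 19.5 CPM in late log. *UMP1*, a proteasome assembly chaperone outside the list, read 46.6 CPM, 18.7 and 19.3 CPM, and 70.7, 59.6 and 80.0 CPM in the same order, and there mid log replicate 1 stayed below late log. In *RPN12* mid log replicate 1 lay above every late log library and replicates 2 and 3 lay below, so the size of its difference rests on that library.

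The largest falls without mid log replicate 1 among well-expressed genes also included *TDA6*, with 81.4, 152 and 147 CPM in mid log and 26.4, 38.5 and 28.3 CPM in late log, *FCY21*, a purine-cytosine permease, and *ALT2*, related to alanine transaminase (log2 fold changes -2.27, -1.99 and -1.91 without that library and -2.03, -1.69 and -1.68 with it). Their adjusted p in the 6 libraries was 0.0502, 0.0882 and 0.0552 by edgeR. *TIM9*, a chaperone of mitochondrial protein import (264 bases), was higher, with 22.3, 13.9 and 14.1 CPM in mid log and 59.9, 38.6 and 54.6 CPM in late log. The groups did not overlap in *TDA6* and *TIM9*.

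The other lists had calls in both directions in the fit without mid log replicate 1, to be read against 28.9% higher and 27.2% lower over all genes tested. Among genes of the nitrogen supply 5 of 21 were higher and 10 lower, among the sulfur and methionine genes 6 of 26 and 9, among arginine genes 2 of 8 and 2, and among lysine, leucine and histidine genes 8 of 24 and 11. Inositol and phospholipid genes had 4 of 18 higher and 11 lower, reserve carbohydrate genes 2 of 20 and 8, hexose transport genes 3 of 18 and 6, and genes repressed by glucose 4 of 29 and 9. Stress genes had 12 of 28 higher and 7 lower. With library totals the balance turned to 8 higher and 5 lower for nitrogen, 17 and 2 for sulfur, 13 and 6 for lysine, leucine and histidine, 6 and 4 for inositol, 4 and 2 for reserve carbohydrate, 7 and 2 for hexose transport and 14 and 1 for glucose-repressed genes, and arginine genes had 4 and 0. Histone genes had 4 of 10 higher and 1 lower, which turned to 1 higher and 4 lower with the length trend removed.

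Gene length went with the difference between late and mid log. In the 6 libraries the median log2 fold change was 0.45 for the 665 protein-coding genes under 500 bases, 0.01 for those of 500 to under 1000 bases, and between -0.22 and -0.27 in each of the longer bins (with library totals 0.74 for the shortest and 0.0 for genes of 3000 bases and more). The median length of the genes called higher was 390 bases and of those called lower 1813 bases, against 1236 bases for all protein-coding genes tested. Of the 18 called higher 12 were under 500 bases, against 12.04% of all protein-coding genes tested, and of the 8 called lower 0 were. Genes are not replicates, and these values describe the libraries without a test.

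The trend with length was steepest in mid log replicate 1. Its shortest genes stood 0.80 lower than its longest genes on the log2 scale relative to the mean of the 6 libraries. This difference was -0.06 and 0.05 in mid log replicates 2 and 3 and 0.33, 0.30 and 0.32 in the late log replicates. Without mid log replicate 1 the medians were 0.33 under 500 bases, 0.13 at 500 to under 1000 bases and -0.04 to 0.09 in the longer bins, with -0.03 at 3000 bases and more. A smaller difference in short genes thus remained between late log and mid log replicates 2 and 3, and the long genes were level. Of the 679 genes under 500 bases, 44.3% were higher and 12.7% lower in that fit, against 21.8% and 28.1% of the 467 genes of 3000 bases and more.

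**Figure D5:**
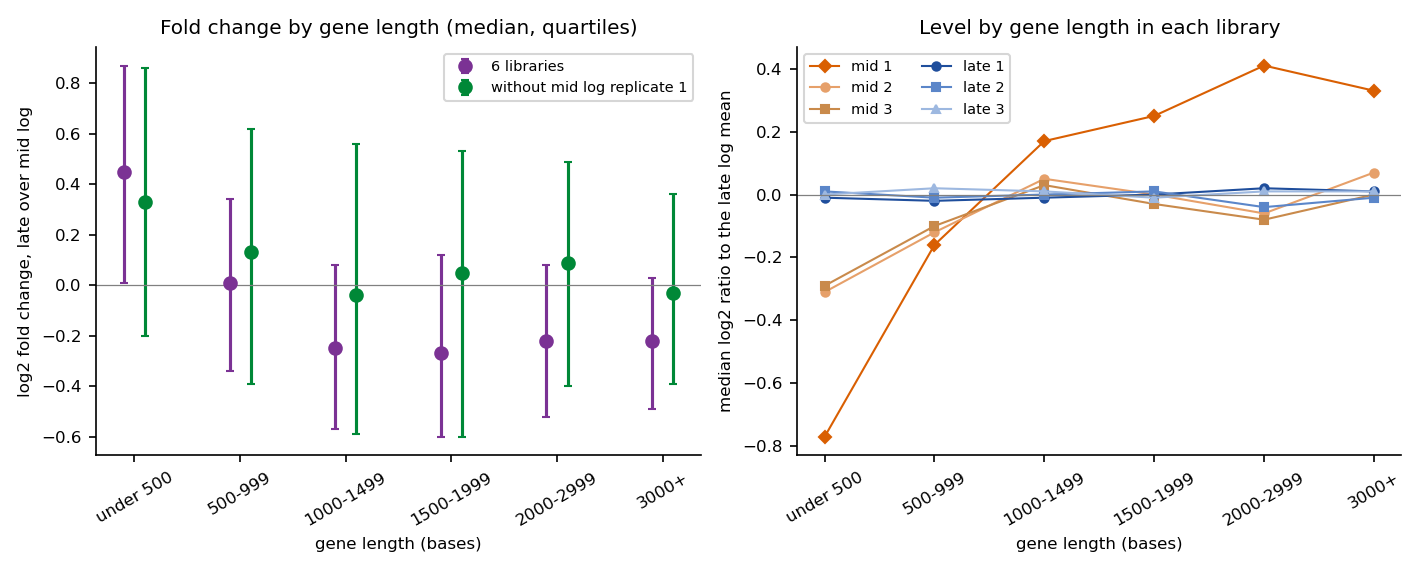
Left, median log2 fold change of late over mid log with quartiles in 6 bins of gene length, with and without mid log replicate 1. Right, the median log2 ratio of each library to the late log mean in the same bins, in which mid log replicate 1 runs from -0.77 under 500 bases to 0.33 at 3000 bases and more while mid log replicates 2 and 3 depart from late log mainly under 500 bases (-0.31 and -0.29).

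Mid log replicate 1 lay on the mid log side in 249 of the 301 short genes called higher without it, but in 22 of the 102 genes of 3000 bases and more called higher. Reads on genes under 500 bases made up 8.92% in mid log replicate 1, 10.4% and 10.5% in replicates 2 and 3, and 15.9% to 16.3% in late log. Within the short genes, the members of the mitochondrial ribosomal and respiratory lists exceeded the others, with a median of 0.77 for 48 members and 0.27 for the 631 other genes without mid log replicate 1. In the bin from 500 to under 1000 bases the medians were 0.82 for 42 members and 0.11 for the rest. With each library's trend on length removed, 57 mitochondrial ribosomal genes were still higher and 3 lower in that fit, with a median of 0.81, and 17 phosphate genes lower. The respiratory chain list moved more with this removal, from a median of 0.67 to 0.31 and from 21 genes higher and 3 lower to 18 and 7. In the 6 libraries this removal left 13 genes past the threshold, among them *THI7*, *THI20*, *FET3* and *SNO1* but 0 of the short mitochondrial genes.

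Markers of mating type and of meiosis checked the labelled strain. The 6 genes of *MATa* cells summed to between 1006 and 1406 CPM in mid log libraries and between 1830 and 1971 CPM in late log libraries, and the 4 genes of *MATalpha* cells to 19.2 to 20.7 against 24.2 to 26.0 CPM, mostly from *SAG1*. The 10 genes of meiosis and sporulation, which haploid cells should lack, summed to 17.6 to 19.7 CPM against 16.5 to 18.3 CPM in the same order, and none was at 0 in all libraries of a subphase. The *MATa* sum moved with the subphase through the short pheromone genes *MFA2* (117 bases), with 134, 271 and 291 CPM in mid log and 656, 683 and 615.5 CPM in late log, and *MFA1* (111 bases), with 41.5, 82.3 and 78.4 CPM against 213, 200.2 and 180 CPM, while the receptor gene *STE2* had a log2 fold change of 0.09. With the length trend removed, *MFA1* had a log2 fold change of 0.81 in place of 1.55 and *MFA2* of 0.78 in place of 1.49 in the 6 libraries, and 0.91 in place of 1.29 and 0.83 in place of 1.21 without mid log replicate 1. The tagged gene *RPA135* read 683, 992 and 1159 CPM in mid log and 513, 448 and 439 CPM in late log, without overlap (log2 fold change -1.02 ± 0.24, SE, adjusted p = 0.106 by edgeR in the 6 libraries and 8.26e-06 without mid log replicate 1).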

How the data were processed

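Single-end reads had been aligned to the R64 genome by STAR, and the authors deposited the raw read counts that HTSeq (0.12.3 in the submitters' processing notes) gave for each gene and library. The strand setting, annotation and feature type are not given in the sources used here. Of the 7127 genes in the files, 6169 were matched by name or systematic name to the RefSeq annotation of R64, and 5 lines that name no gene were left out. Groups were taken from the labels, and sequencing runs and OD600 from the methods.

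Genes were tested with edgeR 4.0.16 in R 4.3.3 (filterByExpr, TMM, quasi-likelihood test, Benjamini-Hochberg adjustment at 0.05 over all genes tested). Alternatives used DESeq2 1.42.0 and limma 3.58.1, and tables were made in Python 3.11.15. CPM was scaled by TMM over the 6 libraries, and the F statistic gave the standard error of each log2 fold change. Medians per library used log2(CPM + 0.5). Length is the span of the annotated gene. The precision of a value is set by the spread between replicates at this depth.

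The members and the 27 gene lists were chosen with earlier results of these data known, so lists are described by counts and medians and not tested. Named genes were every gene past the threshold in the 6 libraries, the 10 largest rises and 10 largest falls without mid log replicate 1 (mean log2 CPM from 5 upward, named genes, groups not overlapping), up to 2 genes per list, *RPA135* and the mating-type genes. Other members of the lists were named after their values were seen. The values of 1 gene that this rule named are not reported here.

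Tested on simulated counts with 200 changed genes, the test recovered 92% in the 6 libraries (5806 genes, 5.64% of calls false) and 99.5% without mid log replicate 1 (5848 genes, 3.4% false). In the real libraries mid log replicate 1 stood apart from its group, and the fit without it called 3318 of 5913 genes. Whether the recovered and false shares hold for such data was not tested. The alternatives were other scalings, tests and filters, all 9 libraries in one fit, removal of the length or GC trend, a replicate block, protein-coding genes only and each library left out. Those of the fit without mid log replicate 1 were added after seeing the data.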

Additional observations from a re-analysis of the deposited data

How the results depend on the processing

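In the 6 libraries, genes higher and lower in late log numbered 175 and 191 (366 in all) with DESeq2's test, 365 and 88 (453) with library totals, 1969 and 1824 (3793) with voom and sample quality weights, where mid log replicate 1 had a weight of 0.0391 against 0.848 to 2.80 for the others, 165 and 58 (223) with all 9 libraries in one fit, and 4 and 9 (13) with the length trend removed. DESeq2's size factors, no filter, at least 10 counts, the GC trend and protein-coding genes kept each count within 1.5 times. Leaving out 1 library gave 0 to 3318 genes (0 to 1707 higher, 0 to 1611 lower): 0 without any late log replicate (566 to 686 at an unadjusted p below the threshold by edgeR), 3 without mid log replicate 2, 2 without mid log replicate 3 and 3318 without mid log replicate 1.

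Correlations of same-numbered deviations from the group means were 0.082, 0.42 and -0.397. They cannot decide whether replicate numbers pair the samples, since mid log replicate 1 sets much of the mid log mean. The replicate block gave 1 gene (0 higher, 1 lower), and with the length trend also removed 2 (0 higher, 2 lower). Under the block, log2 fold changes turned to 0.70 for *TYS1*, 0.85 for *ERG20* and 0.11 for *STE6*, and with length to 0.77, 0.88 and 0.25 and to 0.05 for *ALD4*.

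Without mid log replicate 1, library totals gave 3321 higher and 630 lower, and a further library left out gave 2316 to 3843 genes (1111 to 2007 higher, with 1128 without mid log replicate 2 and 1111 without replicate 3, and 1205 to 1836 lower).

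Other reversals in the 6 libraries included, under library totals, *SUC2* 0.05, *ALD4* 0.21, *HTZ1* 0.10, *STE6* 0.05 and *STE3* 0.15. Under voom they were *TYS1* 2.01, *ERG20* 2.15, *STE2* -0.01 and *STE6* 0.71. The length trend turned *HTB1* to -0.01 and *STE6* to 0.18, and the 9-library fit *ALD4* to 0.01 and *STE6* to 0.05. With 1 library left out, values ran from -1.15 to 1.97 for *TYS1*, -1.02 to 2.12 for *ERG20*, -0.39 to 0.04 for *ALD4*, -0.18 to 1.34 for *LYS21*, -0.29 to 1.21 for *LEU1*, -0.06 to 0.26 for *STE2*, -0.30 to 0.64 for *STE6* and -0.69 to 0.02 for *MF(ALPHA)2*, the extremes away from the other libraries being those without mid log replicate 1 for *TYS1*, *ERG20*, *LYS21*, *LEU1* and *STE6*. For genes under 500 bases the median was 0.74 with library totals and 0.33 to 0.53 with 1 library left out. For genes of 3000 bases and more it was 0.0 with library totals, -0.44 among genes whose mean log2 CPM reached 5, and -0.29 to -0.03 with 1 library left out, and the difference between these bins was 0.36 to 0.82. Apart from the length alternatives and the lone library named, the cause of these moves was not tested.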
